A study of Mus musculus with 6 samples.

Results

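The genes described here are those of epidermal growth factor (Egf), 5 related ligands (Hbegf, Areg, Ereg, Tgfa and Btc) and the 4 ErbB receptors (Egfr, Erbb2, Erbb3 and Erbb4), measured as mRNA in mouse kidney. They were chosen by gene symbol, and all 10 were found among the 55450 genes of the deposited count table. Kidneys came from wild-type male C57BL/6J mice, bought at 7 weeks of age and kept for 1 week before the study. The day-0 group (3 mice) is the control and is labelled with 20% PEG, a vehicle. The day-21 group (3 mice) received adenine at 0.16 g/kg and potassium oxonate at 2.4 g/kg once daily by gavage for 21 days, to raise serum uric acid and injure the kidney. By the study's methods each group was killed on its own day, so 21 days of age cannot be told apart from the treatment. The labels give PEG for the day-0 group only, and the methods name no vehicle for either group. A difference in vehicle can therefore not be told apart from the treatment either. The labels call the treatment a feeding, and the methods a gavage. RNA came from unsorted kidney tissue, a mixture of cell types.

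The ligands of the EGF family are made as membrane-anchored precursors that proteases cut free, and they bind receptor tyrosine kinases of the ErbB family. EGF, amphiregulin (Areg) and TGF-alpha (Tgfa) bind the EGF receptor (Egfr), while HB-EGF (Hbegf), betacellulin (Btc) and epiregulin (Ereg) bind both Egfr and ErbB4. ErbB2 has no known ligand of its own and ErbB3 has little kinase activity, so both work in pairs with other members. In the kidney, Egf is made chiefly by the thick ascending limb and the distal convoluted tubule, and EGF is abundant in normal urine.

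The 6 libraries held between 10963849 and 14333311 counts, and a gene's detection floor was taken as 3 counts, which covers counting error only. All 10 proximal tubule markers and all 10 podocyte and collecting duct markers looked up had enough counts to be tested. All 10 macrophage markers did as well, so passing this filter does not by itself identify the tissue. Among the day-0 mice, replicate 1 stood apart in some of the 10 genes of injured tubules looked up. Levels are given as CPM, the count relative to the scaled library size. Krt20 was at 16.0 CPM in this mouse, against 0.247 and 0.515 CPM in the other day-0 mice, and Havcr1 (KIM-1) was at 8.12 CPM against 2.23 and 1.55 CPM. Spp1, Vcam1, Clu, Krt8 and Lcn2 were also highest in replicate 1 among the day-0 mice. Sox9, Krt18 and Cd44 in this mouse lay between the other day-0 mice. Each count of members below is therefore also given without day-0 replicate 1.

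Of the 10 members, 8 had enough counts to be tested, and 3 of these 8 were called. A gene was called where edgeR's quasi-likelihood test gave a Benjamini-Hochberg adjusted p under 0.05 over all 16592 genes tested and the fold change was over 1.5, the limits of the study. Egf and Erbb3 were called lower on day 21, and Hbegf was called higher. Among all genes tested, 35.1% were called, 19.6% as higher and 15.5% as lower, so that 3 of 8 members is close to the background. At an adjusted p under 0.05 with any fold, the same 3 members and 45.6% of all genes passed. Egf was also 1 of the 7.56% of genes that fell more than 2-fold at an adjusted p under 0.01. Without day-0 replicate 1 the counts of members were again 1 higher and 2 lower. The size of the change set Egf apart from the other members, and most receptors stayed within 1.5-fold.

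**Figure D1:**
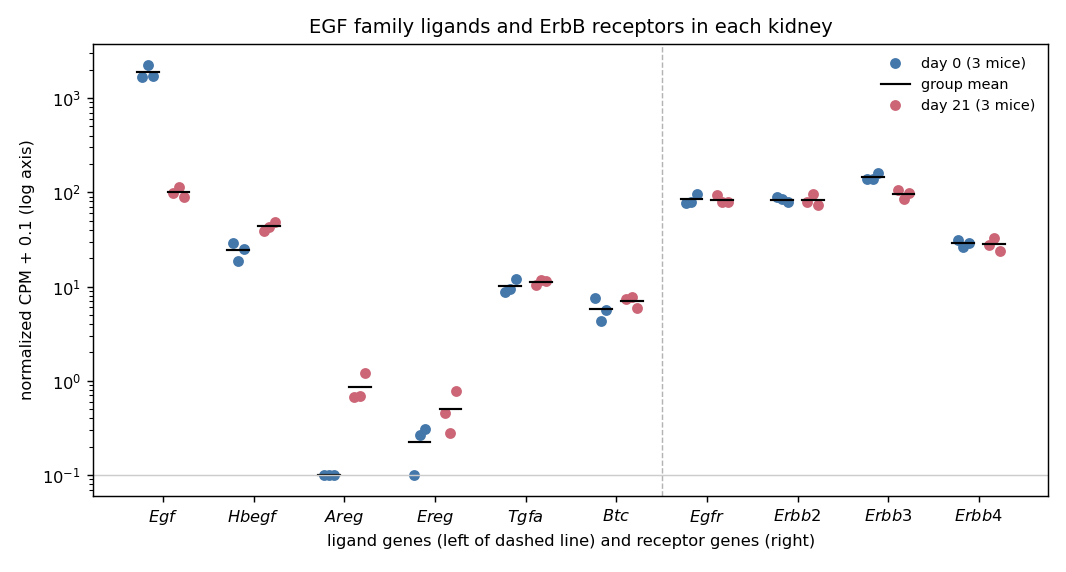
Normalized CPM plus 0.1 of the 10 members in each kidney, on a log axis, with day 0 in blue, day 21 in red and the mean of each group of 3 mice as a black line. Egf fell from a mean of 1886 CPM to 100.3 CPM, Areg was at 0 in all 3 day-0 mice (drawn on the grey line at 0.1), and Egfr, Erbb2 and Erbb4 overlapped between the days.

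Egf (ENSMUSG00000028017.7) encodes the EGF precursor and lies on the reverse strand of GRCm38 at chr3:129677565-129755316, with 24 exons in its longest annotated transcript. The day-0 kidneys gave 16621, 27523 and 16706 counts of Egf, and the day-21 kidneys gave 1379, 1907 and 1466. The lowest day-0 kidney lay far above the highest day-21 kidney. Scaled for library size, the level fell from 1886 ± 333 CPM (SD, n = 3) to 100.3 ± 12.2 CPM (SD, n = 3). This was an 18.8-fold fall, or -4.23 on the log2 scale (standard error, SE, 0.17, 95% confidence interval -4.61 to -3.85, edgeR adjusted p = 3.17e-07). A two-sided exact permutation test gave p = 0.1, the smallest p that 3 mice against 3 allow. By fold change, Egf was number 25 among the 2572 genes called lower. Per kilobase of exon it was the gene with the 307th highest level of the 16592 tested on day 0, and the 5515th on day 21. In such bulk tissue, fewer cells that make Egf and less Egf RNA per cell cannot be told apart.

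The stretch before the transcription start is shown for Egf, the member that fell most, and for Areg, the ligand with no count on day 0. RefSeq (GRCm38.p6) gave promoter windows for 7 of the 10 members, and of each window the 250 bases before the start were searched on both strands for a TATA box (TATAAA), an AP-1 site (TGANTCA), a cyclic AMP response element (TGACGTCA) and a GC box (GGGCGG). None of these letters overlap another motif in the stretches shown, and matches stand in capitals, 5′ to 3′.
Egf, chr3:129755323-129755572, reverse strand: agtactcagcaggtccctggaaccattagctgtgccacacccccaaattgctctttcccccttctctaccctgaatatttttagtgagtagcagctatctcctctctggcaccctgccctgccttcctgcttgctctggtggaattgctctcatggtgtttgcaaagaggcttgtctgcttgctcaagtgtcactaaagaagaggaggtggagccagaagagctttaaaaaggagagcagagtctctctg
Areg, chr5:91139349-91139598, forward strand: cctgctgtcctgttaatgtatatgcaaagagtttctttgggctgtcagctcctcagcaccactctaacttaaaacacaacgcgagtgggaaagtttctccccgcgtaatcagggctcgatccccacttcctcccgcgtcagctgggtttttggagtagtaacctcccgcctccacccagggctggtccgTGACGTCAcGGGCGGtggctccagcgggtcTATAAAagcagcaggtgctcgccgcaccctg
The Areg stretch held a cyclic AMP response element 61 to 54 bases before the start, a GC box 52 to 47 bases before it and a TATA box 31 to 26 bases before it. Among the 32851 promoters of the same length, 1.55% held the first, 32.7% a GC box and 12.4% the TATA box letters. The Egf stretch held none of the 4 motifs as spelled. RefSeq lists another start of Egf, and the window before it (chr3:129725087-129725336, not shown) held none either. An AP-1 site, found in 6.75% of promoters, was in none of these 3 windows. A match is a run of letters and was not tested for binding.

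The fall of Egf was set beside the other genes of the tubule segments that make it. Umod, which encodes uromodulin and is made by the thick ascending limb, went from 4670 ± 719 CPM to 3413 ± 208 CPM (SD, n = 3 each). That change, -0.45 in log2 (SE 0.14, edgeR adjusted p = 0.027), was under the 1.5-fold limit. It was -0.059 with scaling by library size alone, where the median of all genes moved up to 0.42. The salt transporter genes of the thick ascending limb and of the distal convoluted tubule, Slc12a1 and Slc12a3, were called lower, with log2 fold changes of -1.65 (SE 0.12) and -1.03 (SE 0.18). Calb1, a calcium-binding protein gene of the distal tubule, was also called lower (-1.13, SE 0.23). Of the 12 markers of the segments, 8 were called lower and 1 (Cldn16) higher, with a median log2 fold change of -0.98 against 0.03 over all genes tested. The confidence interval of Egf lay below those of 11 of these markers, and Pvalb, with 0, 0 and 1 counts on day 21, was the exception.

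Within each library, Egf also fell against single tubule genes, a comparison chosen after the values were seen. For each 1000 counts of Umod, the day-0 kidneys had 418, 418 and 374 counts of Egf and the day-21 kidneys 30.7, 32.3 and 25.3. The ratio was 13.8-fold lower on day 21, with no overlap between the groups. Against Slc12a1 the ratio was 5.93-fold lower and against Slc12a3 it was 9.29-fold lower, again without overlap. The two-sided exact permutation test gave p = 0.1 for each of the 3 ratios, the smallest p possible here. These ratios do not depend on the scaling of the libraries. The summed level of the 12 segment markers lay between 7353 and 8630 CPM on day 0 and between 4389 and 5044 CPM on day 21, and its part in the fall of Egf was not tested further.

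**Figure D2:**
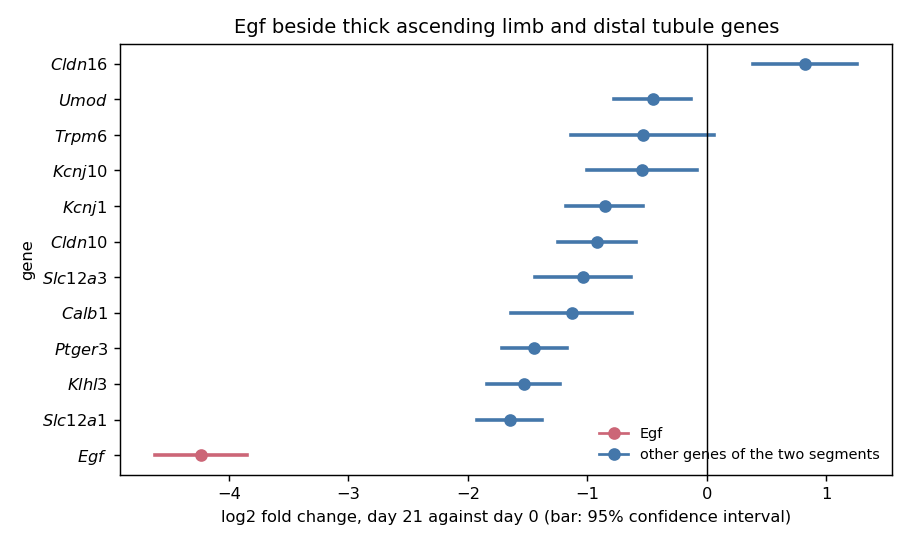
Log2 fold change of day 21 against day 0 (points) with 95% confidence intervals (bars) for Egf, in red, and 11 genes of the thick ascending limb and distal convoluted tubule, in blue (Pvalb, near 0 counts on day 21, is left out). Egf at -4.23 lies to the left of all 11, of which Slc12a1 at -1.65 is the nearest.

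A pair of genes annotated as antisense to Egf fell with it. Gm42697 on the forward strand (chr3:129728845-129740188) was counted 1876, 2793 and 1952 times in the day-0 kidneys and 136, 150 and 170 times in the day-21 kidneys, or -4.42 in log2 (SE 0.14). 6330410L21Rik, which overlaps the start of Egf on the forward strand, changed by -4.58 in log2 (SE 0.24). They share 607 and 500 of their exon bases with exons of Egf, 14.8% and 12.9% of their length, and together these bases are 9.82% of the exon bases of Egf. Day-0 kidneys held 9.19 counts of Egf for each count of Gm42697, and day-21 kidneys 10.4. The strand setting of the counting is not given in the sources used here, so reads of Egf and of these antisense genes cannot be told apart where they overlap.

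By a fixed measure of likeness, Gm42697 was also the gene whose profile came nearest to that of Egf. The measure is the root mean square difference between log2 CPM values over the 6 mice, each gene centred on its own mean, among 13120 other genes with a mean of at least 50 counts and no count of 0. It was 0.20 for Gm42697, 0.27 for Inmt, an indolethylamine N-methyltransferase gene, and 0.31 for Kcnt1, a sodium-activated potassium channel gene. Inmt went from 723 ± 104 CPM to 41.2 ± 8.34 CPM (SD, n = 3 each), and Kcnt1 from 16.6 ± 4.72 CPM to 0.735 ± 0.140 CPM. Such profiles rest mostly on the difference between the days, and no p is given.

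Hbegf, on chromosome 18 (ENSMUSG00000024486.6), encodes HB-EGF, a heparin-binding ligand. Its counts were 285, 225 and 244 in the day-0 kidneys against 543, 719 and 794 in the day-21 kidneys. Normalized, the day-0 mice lay between 18.5 and 28.6 CPM and the day-21 mice between 38.4 and 48.6 CPM, so the groups did not overlap, as was the case for 57.1% of all genes tested. The mean rose from 24.1 ± 5.10 CPM to 43.3 ± 5.14 CPM (SD, n = 3 each). In log2 this was a rise of 0.85 (SE 0.17, 95% confidence interval 0.48 to 1.22, edgeR adjusted p = 0.00221), or 1.80-fold. It was number 2555 among the 3249 genes called higher, a modest rise in these kidneys. The genes nearest to Hbegf in profile were Map4k4 (root mean square difference 0.047), Fgd3 (0.054) and Cttnbp2nl (0.083). HB-EGF is also made by macrophages, and the summed level of 10 macrophage markers lay between 140 and 178 CPM on day 0 and between 748 and 897 CPM on day 21, with 9 of the 10 called higher and none at 0. Their part in the rise of Hbegf was not tested.

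Tgfa and Btc were measured at lower levels and did not pass the test. Tgfa (chr6:86195223-86275719), which encodes TGF-alpha, gave 86, 114 and 117 counts in the day-0 kidneys against 145, 194 and 184 in the day-21 kidneys. After scaling these became 8.62, 9.40 and 12.1 CPM against 10.3, 11.6 and 11.3 CPM, so the groups overlapped after TMM scaling. Its log2 fold change was 0.14 (95% confidence interval -0.27 to 0.55, edgeR adjusted p = 0.565). It was 0.53 where only the library size was used (edgeR adjusted p = 0.0357), still under the 1.5-fold limit. The median of all genes was 0.42 with that scaling. Btc (chr5:91357261-91402994), which encodes betacellulin, gave 74, 51 and 54 counts against 102, 127 and 95. Its log2 fold change was 0.27 (95% confidence interval -0.30 to 0.83, edgeR adjusted p = 0.421). For both genes the groups overlapped in TMM-scaled CPM, and the interval reached from a small fall to a rise of 1.46-fold for Tgfa and 1.78-fold for Btc.

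Areg and Ereg had too few counts to pass the filter, and both had their highest counts on day 21. Areg (chr5:91139599-91148432), which encodes amphiregulin, was not counted once in the day-0 libraries (0 in each of 3), whereas the day-21 libraries held 8, 10 and 18 counts. Against the mean day-0 floor of 3 counts per library (0.286 CPM), the day-21 mean was at least 2.64-fold higher. The two-sided exact permutation test gave p = 0.1, the smallest p allowed. Without a filter on low counts, Areg was called higher, as were 13.4% of 26914 genes. That fit set one trended spread for all genes in place of each gene's own, so it is no test against the spread between mice. Ereg (chr5:91074622-91093646), which encodes epiregulin, gave 0, 2 and 2 counts in the day-0 kidneys against 5, 3 and 11 in the day-21 kidneys. Per effective library size the ratio was 3.20 (exact 95% counting interval 1.06 to 12.9). This interval pools the counts of each group and leaves out the spread between mice. The groups overlapped in CPM (two-sided exact permutation test, p = 0.2), and without a filter Ereg was not called (edgeR adjusted p = 0.343).

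Areg, Ereg and Btc lie in a cluster of ligand genes on chromosome 5. With Epgn, the gene of epigen, they span 375.5 kb. Differences between their changes were not tested. Areg went from no count to a few in each kidney, Ereg reached at most 11 counts, Btc kept a level of several CPM on both days, and Epgn had a single count on day 0 and 2 counts on day 21.

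Per kilobase of exon, the make-up of the ligand transcripts changed. Egf made up 94.3%, 97.0% and 94.8% of the counts per kilobase of the 6 ligands in the day-0 kidneys and 42.6%, 44.0% and 36.0% in the day-21 kidneys. The mean went from 95.4 ± 1.41% to 40.8 ± 4.24% (SD, n = 3 each), with no overlap (exact permutation test, two-sided, p = 0.1, which is the lower limit). The share of Hbegf went from 2.95 ± 0.992% to 41.1 ± 3.82%. Shares of Tgfa and Btc, whose levels did not pass the test, went from 0.900% to 7.80% and from 0.753% to 6.99%, as the total shrank. Without scaling by exon length, Egf went from 97.9% to 61.6%. Its share then fell by 36.3 percentage points, while with scaling it fell by 54.5 percentage points.

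The order of the ligands by level per kilobase shifted as well. On day 0 the order was Egf, Hbegf, Tgfa, Btc, Ereg and Areg, with Egf at 167 ± 29.5 CPM per kilobase and Hbegf at 4.98 ± 1.05 (SD, n = 3). Tgfa and Btc overlapped in that order, and so did Ereg and Areg. On day 21, Hbegf at 8.96 ± 1.06 and Egf at 8.90 ± 1.09 CPM per kilobase overlapped at the top, followed by Tgfa and Btc, which overlapped, and then Areg and Ereg. The overlap of Hbegf and Egf on day 21 held only with merged exons as length. With the longest transcript as length, Egf stayed first on day 21. Its share of the ligands was then 46.3% to 54.7%, against 34.0% to 41.4% for Hbegf. Without length scaling Egf was also first, with 57.1% to 64.4% against 24.3% to 30.9%. Per kilobase of merged exons, the sum of the 6 ligands was 8.03-fold lower on day 21 (175 ± 28.1 against 21.8 ± 1.35 CPM per kilobase). Without Egf, the sum of the other 5 was 1.65-fold higher (7.83 ± 1.39 against 12.9 ± 1.24), and neither sum overlapped between the groups (exact permutation test, two-sided, p = 0.1 for each, the lower limit).

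**Figure D3:**
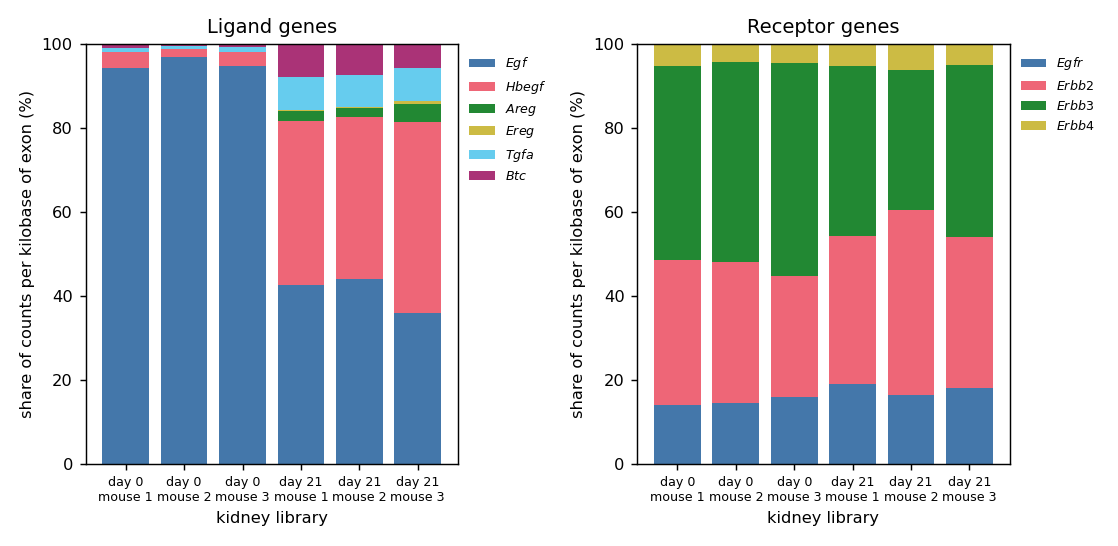
Share of each gene in the counts per kilobase of exon of the 6 ligands (left) and of the 4 receptors (right), in percent, as a stacked bar for each kidney library. Egf filled 94.3% to 97.0% of the ligand bars on day 0 and 36.0% to 44.0% on day 21, while Erbb3 went from a mean of 48.3% to 38.4% of the receptor bars.

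Of the 4 receptors, Erbb3 was called lower and the other 3 did not pass the test. Erbb3 (chr10:128567523-128589652) encodes the partner receptor with weak kinase activity. Counts of 1367, 1680 and 1568 in the day-0 kidneys and of 1489, 1418 and 1587 in the day-21 kidneys gave, after scaling, 137, 138 and 162 CPM against 105.3, 84.6 and 97.2 CPM. The raw counts overlapped and the scaled values did not. The fall was -0.61 in log2 (SE 0.12, 95% confidence interval -0.88 to -0.34, edgeR adjusted p = 0.00241), or 1.52-fold lower, just past the 1.5-fold limit. This call was lost with upper quartile scaling (-0.52) and with scaling by library size alone (-0.22), and also without day-0 replicate 3 (-0.54) or without day-21 replicate 2 (-0.52), although the direction was kept in each.

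Egfr (chr11:16752203-16918158), the receptor for EGF, gave 771, 966 and 926 counts in the day-0 kidneys against 1309, 1314 and 1301 in the day-21 kidneys. Normalized, it was at 84.1 ± 9.86 CPM on day 0 and 83.5 ± 7.82 CPM on day 21 (SD, n = 3 each). The difference in log2 was -0.010 with a 95% confidence interval from -0.28 to 0.26 (edgeR adjusted p = 0.954). Erbb2 (chr11:98412470-98437716), the receptor without a known ligand, was at 83.8 ± 4.91 CPM and 83.2 ± 12.0 CPM, with an interval from -0.29 to 0.27. Erbb4 (chr1:68032186-69108059), a receptor for neuregulins and for HB-EGF, was at 28.8 CPM and 28.1 CPM, between 26.1 and 31.4 CPM on day 0 and between 24.0 and 32.8 CPM on day 21, with an interval from -0.36 to 0.29. For these 3 genes the mice of both days overlapped, and no interval reached the 1.5-fold limit in either direction. Their small estimates turned positive with scaling by library size alone (0.38, 0.38 and 0.36), where the median of all genes also moved up, to 0.42.

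Among the receptor transcripts, the share of Erbb3 per kilobase of exon went from 48.3 ± 2.36% to 38.4 ± 4.36%, that of Erbb2 from 32.2 ± 3.13% to 38.4 ± 4.84% and that of Egfr from 14.8 ± 1.07% to 17.8 ± 1.29% (SD, n = 3 each). The groups did not overlap in any of the 3 (exact permutation test, two-sided, p = 0.1 for each, the lower limit). Without length scaling the Erbb2 shares did overlap, at 26.5%, 25.6% and 21.6% against 26.0%, 33.1% and 26.9% (exact permutation test, two-sided, p = 0.2). The levels of Erbb2 and Egfr themselves did not pass the test, and their shares rose as the total shrank. The order by level per kilobase on day 0 was Erbb3 at 24.2, Erbb2 at 16.1, Egfr at 7.43 and Erbb4 at 2.33 CPM per kilobase, with no overlap between neighbours. On day 21, Erbb2 at 16.0 and Erbb3 at 15.9 CPM per kilobase overlapped, and Egfr and Erbb4 followed apart from them. Summed over the 4 receptors, the level was 50.1 ± 2.36 CPM per kilobase on day 0 and 41.5 ± 1.97 on day 21, so the receptor pool changed far less than the 8.03-fold fall of the ligand sum.

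**Figure D4:**
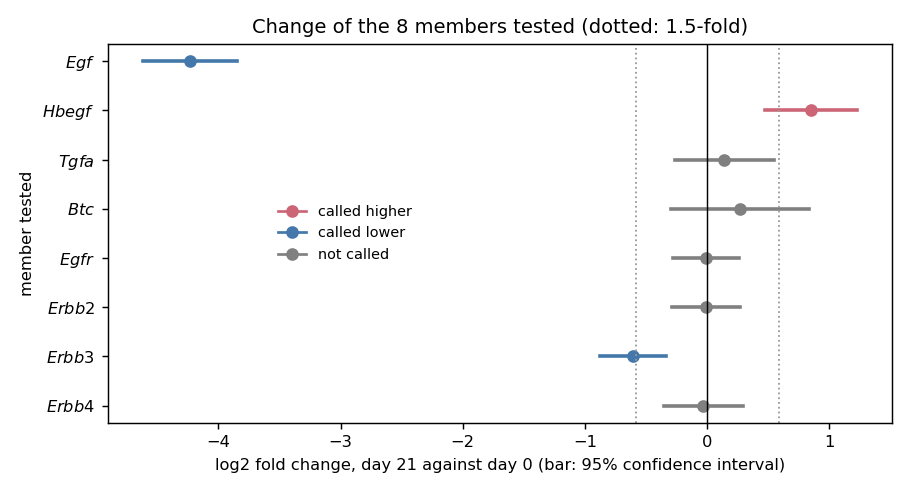
Log2 fold change of day 21 against day 0 (points) and its 95% confidence interval (bars) for the 8 members tested, with dotted lines at the 1.5-fold limit. Egf at -4.23 and Erbb3 at -0.61 were called lower (blue), Hbegf at 0.85 was called higher (red), and the intervals of the other 5 (grey) include 0.

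The remaining ligands of the family are the neuregulins, which bind ErbB3 and ErbB4, and epigen. Nrg1 and Nrg4 were the 2 of 5 with enough counts to be tested, and Nrg4 was called lower, from 25.1 ± 4.07 CPM to 16.6 ± 2.23 CPM (SD, n = 3 each, log2 fold change -0.60, edgeR adjusted p = 0.0136). That call was lost with upper quartile scaling (-0.52), with library size alone (-0.21) and without day-0 replicate 2 (-0.54), day-0 replicate 3 (-0.54) or day-21 replicate 2 (-0.50). Nrg1 was at 78.0 CPM in day-0 replicate 1, at 13.2 and 15.9 CPM in the other day-0 mice and between 33.9 and 44.9 CPM on day 21. With all mice its log2 fold change was 0.16 (SE 0.54, edgeR adjusted p = 0.829). Without day-0 replicate 1 it was 1.43 (SE 0.17, edgeR adjusted p = 6.58e-05), while without day-0 replicate 2 or 3 it was -0.24 or -0.19. Nrg1 was singled out after its values were seen, and its change rests on that 1 library.

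The proteases that release the ligands, with their cofactors, form a list of 8 genes, each tested singly. The list was chosen with earlier results of these data known and was not tested as a set. Of these, 4 were called higher and none lower, with a median log2 fold change of 0.58. Among all genes tested, 19.6% were called higher. Without day-0 replicate 1, 5 of the 8 were called higher and again none lower. Adam12 rose from 3.38 ± 1.84 CPM to 22.1 ± 8.80 CPM (log2 fold change 2.72, edgeR adjusted p = 3.31e-04) and Adam19 from 4.26 ± 1.01 CPM to 14.4 ± 3.38 CPM (1.75, edgeR adjusted p = 3.26e-04). With all mice, the other genes called higher were Rhbdf2, a cofactor of ADAM17, and Adam10, which releases EGF and betacellulin. Adam10 had a log2 fold change of 0.61 near the limit, and its call was lost with RLE scaling, with DESeq2 and without day-0 replicate 2. Adam17, which releases HB-EGF, TGF-alpha and amphiregulin, had a log2 fold change of 0.42 (edgeR adjusted p = 0.00875), under the 1.5-fold limit. It passed that limit with scaling by library size alone (0.81), where the median of all genes was also raised, to 0.42. Summed fibroblast markers lay between 300 and 458 CPM on day 0 and between 1498 and 2611 CPM on day 21. All 10 were called higher and none was at 0, while 8 were called higher without day-0 replicate 1. Pdgfra, Dcn and Acta2 overlapped between the days. The part of the fibroblast markers in the rise of Adam12 and Adam19 was not tested.

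Genes that act behind the receptors moved in both directions. Of 15 feedback inhibitors, 3 were called higher and 2 lower, with a median log2 fold change of 0.03, equal to that of all genes. Among all genes tested, 19.6% were called higher and 15.5% lower, so these counts are close to the background. Dusp5, an ERK phosphatase gene, rose by 1.38 in log2 (SE 0.36) and Spry2, a Sprouty gene, by 0.94 (SE 0.15). The genes called lower were Errfi1 and Lrig1, whose products bind ErbB receptors and damp them, with -0.78 (SE 0.13) and -0.75 (SE 0.14). Both lost their call with scaling by library size alone. Of 30 signal transducers, 2 were called higher (Akt1, 0.72, and Pik3r1, 0.62) and 5 lower, with a median of -0.16, and the largest falls with the count minimum were those of Eps8, an EGF receptor substrate gene (-1.25), and Braf (-0.81). Braf lost its call with scaling by library size alone (-0.42). The call of Pik3r1 was lost without day-0 replicate 2 or day-21 replicate 3. With all mice, the counts of transducers called were close to or below the background in each direction. Without day-0 replicate 1, 5 transducers were called higher and 5 lower.

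Of 12 genes known to respond to ERK signalling, 10 were called higher and none lower, with a median log2 fold change of 1.44. The list was chosen with earlier results of these data known, so this count describes its genes and is no independent test. Among all genes tested, 19.6% were called higher. Etv4 rose from 1.00 ± 0.484 CPM to 6.55 ± 0.649 CPM (log2 fold change 2.67, edgeR adjusted p = 1.61e-04) and Fos from 3.37 ± 1.53 CPM to 14.2 ± 0.777 CPM (2.09, edgeR adjusted p = 1.81e-04). Ccnd1 and Etv5 were the ones not called. The Dusp, Spry and Spred genes of the feedback list were mixed. Dusp5, Spry1 and Spry2 were called higher. Dusp4 (-0.24), Dusp6 (-0.23), Spry4 (-0.06), Spred1 (0.18) and Spred2 (0.09) were not called. The ERK-responsive genes also respond to receptors other than those of the ErbB family. Egr1 among them was at 28.4 CPM in day-0 replicate 1 against 8.98 and 13.2 CPM in the other day-0 mice. Without that mouse, 10 of the 12 were again called higher. All 10 markers of injured tubules were called higher as well, with a summed level between 1007 and 2384 CPM on day 0 and between 24229 and 28595 CPM on day 21, and their part in the rise of the ERK-responsive genes was not tested.

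**Figure D5:**
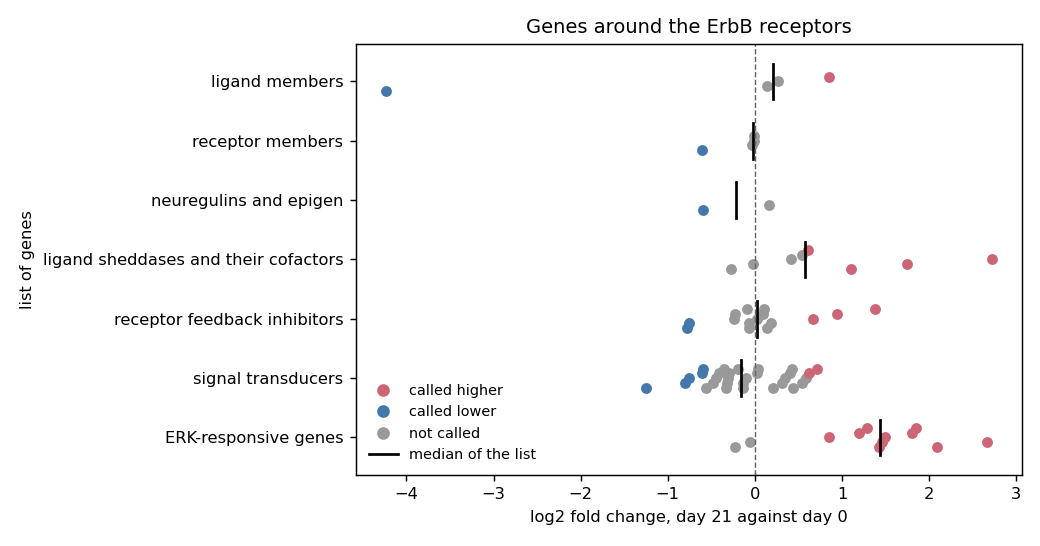
Log2 fold change of day 21 against day 0 for each gene tested, in 7 lists, with genes called higher in red, called lower in blue and not called in grey, and the median of each list as a black line. The ERK-responsive genes have a median of 1.44 with 10 of 12 called higher, against 19.6% of all genes tested. All lists were chosen with earlier results of these data known. The signal transducers lie on both sides of 0 with a median of -0.16, and Egf is the single point near -4.

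Markers of other cell types changed between the days in the same kidneys. In bulk tissue, a change in cell number and a change in RNA per cell cannot be told apart. Among all genes tested, 15.5% were called lower and 19.6% higher. The marker lists, too, were chosen with earlier results of these data known. All 10 proximal tubule markers were called lower, with a summed level between 15105 and 16961 CPM on day 0 and between 3667 and 4803 CPM on day 21. Of the podocyte and collecting duct markers, 7 of 10 were called lower and none higher, and 6 lower without day-0 replicate 1. Their summed level was between 993 and 1138 CPM on day 0 and between 514 and 591 CPM on day 21. Lymphocyte markers rose from between 15.1 and 19.9 CPM to between 81.4 and 82.1 CPM in sum, with 6 of the 7 tested called higher. Of 10 endothelial markers, 3 were called lower, and 4 without day-0 replicate 1. Of the 9 urothelial markers tested, 1 was called lower, and 3 without that mouse. The 1 urothelial marker called higher was Krt20, which is also among the injured tubule markers. None of the lists was used to correct the levels of the members.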

How the data were processed

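The authors extracted total RNA from kidney, sequenced cDNA as paired-end reads and aligned them. The submitters' processing notes name TopHat and mm10, and the counting program and its strand setting are not given in the sources used here. The deposited values are raw counts per gene for each mouse, not normalized and not pooled. All 55450 identifiers matched GENCODE mouse release 21, and no column was left unmapped. Groups were taken from each sample's title.

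Counts were filtered with edgeR's filterByExpr (minimum count 10, minimum total 15), scaled by TMM and tested with edgeR 4.0.16 in R 4.3.3 without a block, for day 21 against day 0. The edgeR, DESeq2 1.42.0 and limma 3.58.1 steps were tested on simulated data. CPM uses TMM-scaled library sizes, and levels of different genes were compared per kilobase of merged exons. Mice of a group differed by more than sampling noise (chi-square per gene 7.19 to 24.0). Pathway genes were named as the 2 largest rises and falls per list among called genes with a mean of at least 50 counts. Others are said to be chosen later or stand beside a member. The members and lists were chosen with earlier results of these data known. Alternatives were other scalings, filters, tools, thresholds, lengths, a replicate block and each mouse left out.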

Additional observations from a re-analysis of the deposited data

How the results depend on the processing

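Egf stayed called lower under every alternative run for it, the stricter threshold included, with log2 fold changes from -4.08 to -4.34 when 1 mouse was left out and -3.84 with library size alone. Hbegf kept its call under the 16 other scalings, filters, tools and left-out mice, between 0.69 and 1.24, and lost it at the stricter threshold (adjusted p under 0.01, fold over 2). The number of members called higher was 2 without a filter, where Areg was added in a fit that does not use each gene's own spread, and 0 at the stricter threshold. The number called lower was 1 with that threshold, with upper quartile scaling and with library size alone, and between 1 and 2 with 1 mouse left out. Small estimates changed sign for Egfr (0.076 with upper quartile scaling, 0.38 with library size alone, and -0.088 to 0.071 with 1 mouse left out), for Erbb2 (0.079, 0.38, and -0.13 to 0.072) and for Erbb4 (0.057, 0.36, and -0.16 to 0.071), as did that of Nrg1 without day-0 replicate 2 (-0.24) or 3 (-0.19), against 1.43 without replicate 1. The cause was not tested. The share of Egf among ligand transcripts changed by -45.5 percentage points with the longest transcript as length, by -36.3 without length scaling, and by -52.1 to -56.1 with 1 mouse left out. The count of DEGs, 5821, was 3172 at the stricter threshold, with 1918 higher and 1254 lower. With library size alone, 5985 genes were higher and 1338 lower, so that 81.7% of DEGs were higher in place of 55.8%. With 1 mouse left out there were 5128 to 5920 DEGs, 2844 to 3242 higher and 2283 to 2708 lower.

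The replicate numbers were not treated as pairs, since deviations of same-numbered mice correlated at -0.019, 0.17 and 0.090, and not every mouse correlated best with its own number. With the replicate block, 3235 genes were higher and 2523 lower, Egf was at -4.22 and the members called were again 1 higher and 2 lower. Depth limits what can be said of Areg and Ereg, with 36 and 19 counts over the 3 day-21 mice.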
